A study of Mus musculus with 5 samples.

Results

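The 40 genes described here are the transcription factor NRF2 (gene symbol Nfe2l2), its regulators, and genes of antioxidant defence, NADPH supply, conjugation and export of toxic compounds. They were taken by gene symbol from the deposited table, which holds 38918 features, and all 40 were found. Of these, 30 had a mean of at least 10 normalised reads over the 5 libraries and were tested. RNA was sequenced from mammary tumours of SV40 transgenic mice, strain FVB, at 20 weeks of age. The maternal BSp group (3 libraries) came from offspring of dams that ate 26% broccoli sprouts (BSp) in their feed, starting at conception and ending at weaning. The control group (2 libraries) came from offspring of dams on the control diet. The offspring of both groups were themselves left without treatment, and both groups carry the SV40 transgene. The promoter of the transgene and the number of animals or litters behind the libraries are not stated in the labels.

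NRF2 is made all the time and is destroyed nearly as fast. KEAP1, an adaptor of a cullin ubiquitin ligase, binds it and marks it for the proteasome, and reactive compounds such as sulforaphane, which broccoli sprouts contain as a precursor, modify KEAP1 and let NRF2 build up. NRF2 then pairs with a small MAF protein on antioxidant response elements, while BACH1 competes for the same sites. Since this control acts on the protein, the mRNA of Nfe2l2 is not a measure of NRF2 activity, and the mRNAs of its target genes are the usual readout.

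Of the 30 tested genes, 15 were higher and 15 were lower in maternal BSp tumours, with a median log2 fold change of 0.08, where 63.2% of all 9870 tested genes were higher and the median was 0.21. That share depended on the scaling: it was 55.3% with upper quartile and 50.2% with median-of-ratios scaling, with 15 of the 30 genes higher in each. None of the 30 genes passed the test (limma with Benjamini-Hochberg adjustment over all 9870 genes, threshold 0.05), and the background was 0% (0 of 9870 genes). The smallest adjusted p was 0.439 among the 30 genes and 0.407 among all genes. At an unadjusted p under 0.05 there were 2 of the 30 genes (6.67%), Pgd and Mgst3, both lower in maternal BSp, beside 11.2% of all genes (1101). All genes with such a p divided into 8.01% higher and 3.14% lower. By the quasi-likelihood test of edgeR no gene passed either, with 9.84% of genes (971) and 3 of the 30 at an unadjusted p under 0.05. DESeq2 called 0.881% of all genes (87), none of them among the 30, with 11.8% of genes and 4 of the 30 at an unadjusted p under 0.05. Every difference below is therefore a difference between these 5 libraries that did not pass the test, and the p-values measure the spread between libraries, which may be technical.

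Recovered read totals ran from 8459029 to 61663199 in maternal BSp libraries and from 1106813 to 3909583 in control libraries, so that every control was shallower than every maternal BSp library. Epithelial identity was plain in all libraries, with Epcam at 1949 to 2393 normalised reads in maternal BSp and 1756 to 2033 in control. Markers of other tissues and cell types differed widely between libraries. The 7 salivary gland markers summed to 8.88 to 2445 in maternal BSp and 0.283 to 692 in control, high in maternal BSp replicate 1 and control replicate 1 only, with Muc19 at 0 throughout. The 6 basal and myoepithelial markers summed to 258 to 1593 in maternal BSp and 2056 to 3171 in control, and all 5 that were tested were lower in maternal BSp, 3 of them at an unadjusted p under 0.05. The 9 macrophage markers in the table summed to 468 to 916 in maternal BSp and 857 to 991 in control, with 3 of the 7 tested higher and 4 lower. The 5 milk and secretory markers summed to 3.00 to 1149 in maternal BSp, highest in replicate 3, and to 3.40 to 4 in control. The 6 erythroid markers summed to 0.682 to 1204 in maternal BSp and 148 to 494 in control. Sums ran from 286 to 1011 in maternal BSp and 305 to 1042 in control for 6 fibroblast markers, from 4141 to 5108 in maternal BSp and 4046 to 4872 in control for 6 luminal markers and from 41.7 to 58.2 in maternal BSp and 37.4 to 60 in control for 5 endothelial markers. They ran from 34.1 to 42.2 in maternal BSp and 7.36 to 44 in control for 7 adipocyte markers, with Plin1, Lep and Pparg at or near 0, and from 0.682 to 28.8 in maternal BSp and 0 to 4.81 in control for 6 lymphocyte markers. In bulk tissue, fewer cells of a type and less RNA per cell cannot be told apart, and the part of these cell types in the results was not tested. With maternal BSp replicate 1 and control replicate 1 left out, a choice made after seeing the data, 18 of the 30 genes were higher in maternal BSp and limma called none, with an adjusted p of 1.00 for each.

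Each value below is a number of normalised reads, since the authors brought all libraries to 1 common total. Within a group, values follow the replicate numbers. Fold changes are maternal BSp over control on the log2(value + 1) scale with their standard error. Gene positions are those of GENCODE on GRCm38.

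Among the 6 regulators, 4 were higher and 2 lower in maternal BSp, with a median log2 fold change of 0.31. Nfe2l2 (chromosome 2, 75675513 to 75704641, minus strand) had 79.6, 68.1 and 62.3 normalised reads in maternal BSp tumours, against 55 and 47.6 in control tumours. Keap1 (chromosome 9, 21229730 to 21239361, minus strand), which encodes its inhibitor, had 94.3, 102 and 69.3 in maternal BSp tumours, against 133 and 107 in control tumours. The groups did not overlap for either gene, with every maternal BSp tumour above both controls for Nfe2l2 and below both for Keap1. The log2 fold changes were 0.44 ± 0.33 for Nfe2l2 (limma, adjusted p = 0.610) and -0.45 ± 0.34 for Keap1 (limma, adjusted p = 0.622). Without maternal BSp replicate 3 that of Keap1 was -0.28.

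Maff and Mafg encode small MAF proteins, the DNA-binding partners of NRF2. Maff (chromosome 15, 79346621 to 79359076, plus strand) had 55.0, 50.1 and 46.7 in maternal BSp tumours, against 27 and 40.2 in control tumours, again without overlap, and its log2 fold change was 0.60 ± 0.35 (limma, adjusted p = 0.525), or 0.32 without control replicate 1. Mafg (chromosome 11, 120625117 to 120633600, minus strand) had 73.1, 142 and 80.3 in maternal BSp tumours, against 75 and 79.6 in control tumours. Only maternal BSp replicate 2 stood well above the rest for Mafg, and without it the log2 fold change was -0.01 instead of 0.28. Mafg is split over 2 rows in the table, and the row that spans the gene was used; the other held at most 0.131 in any library.

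Bach1, the repressor that competes for NRF2 sites, had 68.0, 75.9 and 32.9 in maternal BSp tumours, against 57 and 33.7 in control tumours. Its low values, in maternal BSp replicate 3 and control replicate 2, lay in different groups. Its log2 fold change was 0.33 ± 0.46, and -0.039 without control replicate 2. Sqstm1 encodes p62, an autophagy receptor that binds KEAP1, and it had 253, 370.1 and 263 in maternal BSp tumours, against 363 and 263 in control tumours, a log2 fold change of -0.09 ± 0.36.

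**Figure D1:**
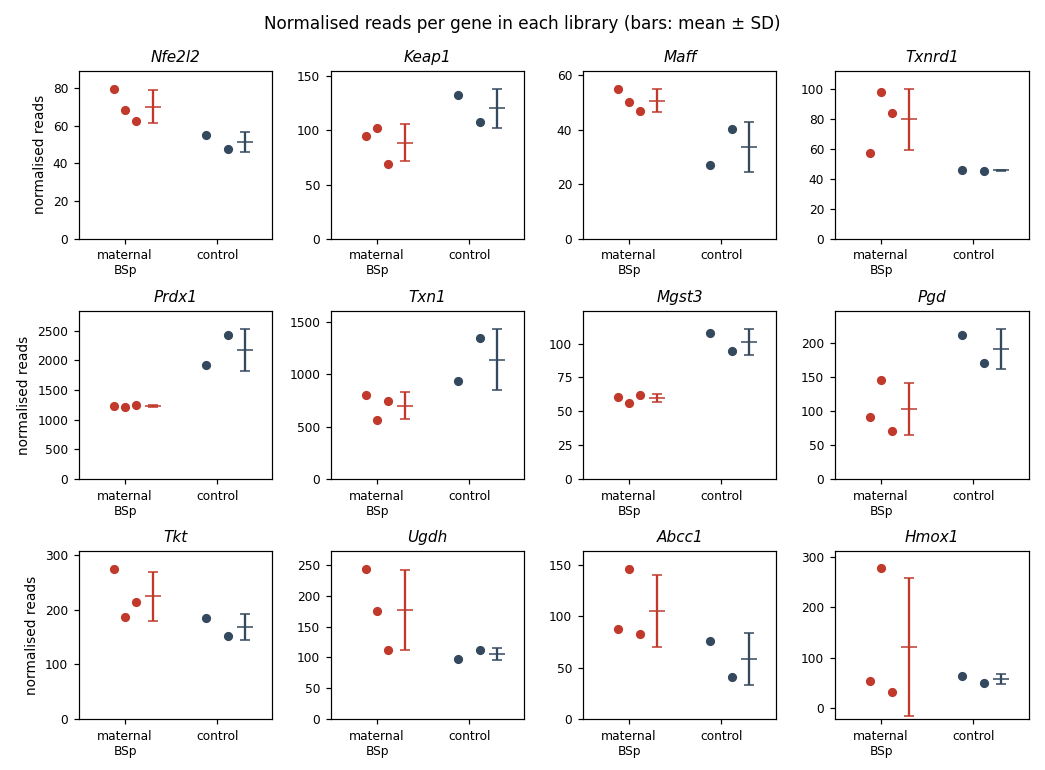
Normalised reads (vertical axis, linear, a separate scale for each gene) of 12 genes in each library, maternal BSp (n = 3, red) left of control (n = 2, blue); points are libraries and the bars beside them mean ± SD. The groups do not overlap for 11 of the 12 genes, and Hmox1 shows 1 maternal BSp library at 278 far above the other 4.

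Across all tested genes the groups did not overlap for 33.0%, 23.8% higher and 9.21% lower in maternal BSp. The same held for 11 of the 30 NRF2 pathway genes (36.7%). The 6 that were higher in maternal BSp (20.0%) were Nfe2l2, Maff, Txnrd1, Tkt, Ugdh and Abcc1, and the 5 that were lower (16.7%) were Keap1, Prdx1, Txn1, Mgst3 and Pgd. The plot of values by library shows these 11 genes beside Hmox1. Under the deposited scaling the whole share and that of the higher side lie near the background. The lower side lies above it, but rests on 5 of 30 genes. These shares were not computed under another scaling.

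Of the 9 antioxidant target genes, 4 were higher and 5 lower in maternal BSp, with a median log2 fold change of -0.10. Nqo1 and Hmox1 are the textbook targets of NRF2. Nqo1, a quinone reductase, had 25.8, 16.0 and 42.7 in maternal BSp tumours, against 18 and 14.7 in control tumours. Maternal BSp replicate 3 held the highest value and replicate 2 lay between the controls, so the groups overlapped, and the log2 fold change was 0.65 ± 0.49 (limma, adjusted p = 0.612). It was 0.31 without maternal BSp replicate 3 and 0.98 without replicate 2. The value in control replicate 1 rests on 18 reads, with a 95% Poisson interval of 10.7 to 28.4 that covers counting error only.

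Hmox1, the haem-degrading enzyme haem oxygenase 1, had 53.8, 278 and 33.1 in maternal BSp tumours, against 65 and 51.2 in control tumours. A single tumour, maternal BSp replicate 2, held the high value, and the log2 fold change was 0.46 ± 0.79 with it and -0.44 without it. Macrophages also express Hmox1. Of the 9 macrophage markers, 5, 8 and 1 were above the mean of the 5 libraries in maternal BSp tumours, against 4 and 5 in control tumours. In maternal BSp replicate 2, 7216 of all 9870 tested genes were above it. The summed value of the macrophage markers was 468, 916 and 503 in maternal BSp tumours, against 857 and 991 in control tumours. The part of macrophages in the Hmox1 value was not tested. Blvrb, which reduces the biliverdin that haem oxygenase makes, had 26.6, 22.0 and 30.7 in maternal BSp tumours, against 38 and 30.0 in control tumours, overlapping, with a log2 fold change of -0.36 ± 0.37, or -0.19 without control replicate 1.

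Srxn1, sulfiredoxin, which repairs over-oxidised peroxiredoxins, had 27.0, 34.4 and 16.5 in maternal BSp tumours, against 20 and 21.8 in control tumours. Osgin1, an oxidative stress induced growth inhibitor, had 17.3, 18.2 and 6.34 in maternal BSp tumours, against 20 and 15.3 in control tumours. Both genes were lowest in maternal BSp replicate 3 and overlapped between the groups, with log2 fold changes of 0.24 ± 0.44 and -0.43 ± 0.58. Without that library the log2 fold change was 0.52 for Srxn1 and 0.018 for Osgin1, and without maternal BSp replicate 2 it was 0.017 for Srxn1.

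Genes of the thioredoxin system lay on both sides of 0. Thioredoxin, the product of Txn1, hands electrons to peroxiredoxins and other proteins, and thioredoxin reductase 1, the product of Txnrd1, reloads it from NADPH. Txn1 (chromosome 4, 57943373 to 57956411, minus strand) had 797, 558 and 746 in maternal BSp tumours, against 932 and 1347 in control tumours, all maternal BSp tumours below both controls. Txnrd1 (chromosome 10, 82833951 to 82897712, plus strand) had 57.4, 97.7 and 83.6 in maternal BSp tumours, against 46 and 45.3 in control tumours, all maternal BSp tumours above both controls. The log2 fold changes were -0.69 ± 0.38 for Txn1 (limma, adjusted p = 0.506) and 0.75 ± 0.36 for Txnrd1 (limma, adjusted p = 0.460). Without control replicate 2 that of Txn1 was -0.43.

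Prdx1 (chromosome 4, 116685544 to 116700822, plus strand) encodes peroxiredoxin 1, an abundant thioredoxin-dependent peroxidase. It had 1225, 1214 and 1255 in maternal BSp tumours, against 1927 and 2429 in control tumours, or 1231 ± 21.2 in maternal BSp (SD, n = 3) and 2178 ± 355 in control (SD, n = 2). The 3 maternal BSp tumours lay below both controls, and the log2 fold change was -0.81 ± 0.37 (limma, unadjusted p = 0.0595, adjusted p = 0.456). The closeness of the 3 maternal BSp values holds for the deposited scaling: with median-of-ratios scaling they were 1228, 941 and 1297, against 2101 and 2588 in control tumours. Prdx6, a peroxiredoxin that uses glutathione in place of thioredoxin, had 67.9, 87.1 and 82.2 in maternal BSp tumours, against 66 and 107 in control tumours, with overlap and a log2 fold change of -0.10 ± 0.36.

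Per kilobase of the longest coding transcript and averaged over the 5 libraries, Txn1 (833) and Prdx1 (702) had by far the highest levels of the 40 genes. Gstp1 (185), Taldo1 (184) and Sqstm1 (113) followed. Keap1 (28.0) and Nfe2l2 (25.2) were at similar levels, and Bach1 (9.12), Srxn1 (8.51) and Osgin1 (7.69) were the lowest of the 30 tested genes. The summed value of the 30 genes, 4153 to 4791 in maternal BSp and 5471 to 6142 in control, has Prdx1 and Txn1 as its largest terms.

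Sequences near the start sites are shown for the genes whose RefSeq promoter window (GRCm38.p6, 250 bases before to 50 after the start) holds the longer of a pair of motifs searched, since NRF2 and small MAF proteins bind elements of this kind. The short core TGACNNNGC was searched on both strands. It was found in 12.4% of all 32851 windows and in 12 of the 42 windows of the set. These 42 windows belong to 34 genes, of which 12 held a match. The longer form TGANTCAGC was found in 1.19% of all windows and in 5 of the 42 windows of the set, those of 5 genes. TGANTCAGC contains TGANTCA, the pattern of the site of AP-1 factors, and where its N is C a match is also a match of the short core. Each sequence reads 5′ to 3′ in the direction of its gene, with the match in capitals; in Prdx1 and Osgin1 the motif lies on the other strand.
Prdx1, chr4:116685440-116685500 (+): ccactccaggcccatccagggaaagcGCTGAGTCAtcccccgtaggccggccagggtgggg
Srxn1, chr2:152105453-152105513 (+): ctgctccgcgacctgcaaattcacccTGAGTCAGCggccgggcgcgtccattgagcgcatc
Osgin1, chr8:119437022-119437082 (+): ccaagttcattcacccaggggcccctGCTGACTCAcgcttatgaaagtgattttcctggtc
Me1, chr9:86695886-86695946 (-): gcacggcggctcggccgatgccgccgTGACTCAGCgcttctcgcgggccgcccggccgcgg
Gstp1, chr19:4037952-4038012 (-): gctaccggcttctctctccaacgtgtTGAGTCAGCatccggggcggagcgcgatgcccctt
The match began 133 bases before the start of the window's transcript in Prdx1, 45 in Srxn1, 99 in Osgin1, 6 in Me1 and 74 in Gstp1. For Osgin1 that start lies inside the gene as GENCODE gives it, which begins at 119434124. The log2 fold changes of the 5 genes were -0.81, 0.24, -0.43, -0.26 and -0.47 in the same order. Of the 5, 4 were lower in maternal BSp, beside 15 of the 30 tested genes, and a link of motif and direction was not tested. A match is a description of the letters and not a bound site.

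The short core was in the window of 4 of the 6 genes that were higher in every maternal BSp tumour, Nfe2l2, Maff, Txnrd1 and Ugdh. It was also in that of 2 of the 5 that were lower in every one, Prdx1 and Pgd. Abcc1, among the 6, had no window to search, and 12 of the 34 genes with a window held the core. Both sets of genes were chosen by these same values, and a link of core and direction was not tested. The 4 higher genes are shown with the match in capitals as above, and in Txnrd1 and Ugdh the match lies on the other strand. The windows of Txnrd1 and Pgd lie at a start inside the gene as GENCODE gives it, and not at its outer end.
Nfe2l2, chr2:75704869-75704913 (-): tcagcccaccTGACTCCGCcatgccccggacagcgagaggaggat
Maff, chr15:79346483-79346543 (+): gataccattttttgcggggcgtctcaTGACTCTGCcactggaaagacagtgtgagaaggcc
Txnrd1, chr10:82859088-82859148 (+): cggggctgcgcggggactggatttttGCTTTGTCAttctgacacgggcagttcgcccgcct
Ugdh, chr5:65435902-65435962 (-): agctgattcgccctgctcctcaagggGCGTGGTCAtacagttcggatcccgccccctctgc
Other genes with the short core were Gsta3, Gstm5, Mafg, Me1 and Srxn1, and Ugdh held a second match. The 6 genes without a window were Hmox1, Abcc1, Prdx6, Gsta4, Gstt2 and Aldh3a1.

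Glutathione transferases attach glutathione to reactive compounds, and 14 genes of the set belong to them. Of these, 6 were tested, with 3 higher and 3 lower in maternal BSp and a median log2 fold change of -0.04. Mgst3 (chromosome 1, 167371966 to 167393841, minus strand), a membrane-bound transferase, had 60.2, 56.3 and 62.3 in maternal BSp tumours, against 108 and 94.6 in control tumours. All maternal BSp tumours lay below both controls, at 59.6 ± 3.05 in maternal BSp (SD, n = 3) and 101 ± 9.51 in control (SD, n = 2), with a log2 fold change of -0.75 ± 0.32 (limma, unadjusted p = 0.0439, adjusted p = 0.439).

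Gstp1 (pi class) had 186, 132 and 82.6 in maternal BSp tumours, against 147 and 211 in control tumours, and Gsto1 (omega class) had 91.5, 127 and 44.9 in maternal BSp tumours, against 76 and 142 in control tumours. For both, maternal BSp replicate 3 was the lowest library and the groups overlapped. Gstm1 (mu class) had 27.2, 51.8 and 17.6 in maternal BSp tumours, against 29 and 19.3 in control tumours, highest in maternal BSp replicate 2, and Gstm5 (mu class) had 76.2, 80.02 and 132 in maternal BSp tumours, against 80 and 73.3 in control tumours, highest in maternal BSp replicate 3. Their log2 fold changes were -0.47 ± 0.42 for Gstp1, -0.36 ± 0.50 for Gsto1, 0.30 ± 0.51 for Gstm1 and 0.28 ± 0.37 for Gstm5. Without maternal BSp replicate 3 they were -0.17 for Gstp1, 0.049 for Gsto1 and 0.027 for Gstm5, and without replicate 2 that of Gstm1 was -0.10.

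Gstt1 (theta class) was the gene nearest the limit of 10, with a mean of 10.9, and had 15.4, 3.34 and 23.6 in maternal BSp tumours, against 5 and 7.36 in control tumours. Its neighbour on chromosome 10, Gstt2, was the nearest under the limit with a mean of 5.26 and had 5.76, 1.13 and 17.2 in maternal BSp tumours, against 0 and 2.26 in control tumours. Both were highest in maternal BSp replicate 3 and second in replicate 1, and Gstt3, outside the set, was also highest in replicate 3, with 5.50, 15.1 and 33.4 in maternal BSp tumours, against 5 and 7.93 in control tumours. The log2 fold change of Gstt1 was 0.77 ± 0.84, with 0.25 without maternal BSp replicate 3 and 1.51 without replicate 2. Its control replicate 1 value rests on 5 reads.

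As a share of the summed reads per kilobase of the 14 transferases, Gstp1 took 46.6%, 35.1% and 26.2% in maternal BSp tumours, against 39.0% and 45.0% in control tumours. Gstm5 took 16.6%, 18.4% and 36.4% in maternal BSp tumours, against 18.4% and 13.6% in control tumours. Maternal BSp replicate 3 was thus the one library in which Gstm5 exceeded Gstp1. Mgst3 took 11.3%, 11.2% and 14.8% in maternal BSp tumours, against 21.5% and 15.1% in control tumours, all lower in maternal BSp.

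**Figure D2:**
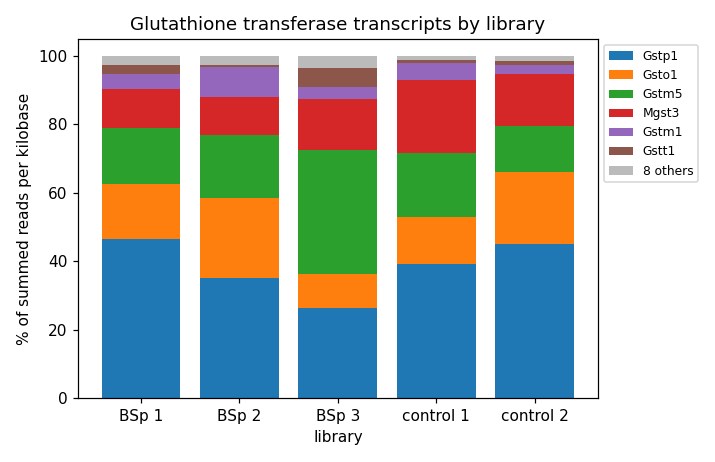
Share of the summed reads per kilobase of the 14 glutathione transferase genes (vertical axis, percent) in each library, maternal BSp (BSp) 1 to 3 left of control 1 and 2. Gstp1 is the largest part in 4 libraries, at 35.1% to 46.6%, and Gstm5 is the largest, at 36.4%, in maternal BSp replicate 3.

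The other 8 transferases were under the limit. Gsta4, an alpha-class enzyme of lipid peroxidation products, ran from 2 to 7.08 normalised reads over the 5 libraries, Mgst2 from 0 to 2.24, and Gstm3 had 0 reads in all 5 libraries. Gsta1, Gsta2 and Gsta3, the alpha-class genes that NRF2 activators raise in mouse liver, reached at most 0.305 in any library. Gstm2 was above in maternal BSp, with 2.62, 2.55 and 1.76 in maternal BSp tumours, against 0 and 0.849 in control tumours, but the control values rest on 0 and 3 reads. The value that 3 reads have is 3 in control replicate 1 and 0.849 in control replicate 2, so the maternal BSp values lie under the limit that a count of 0 allows in control replicate 1.

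Of the 5 NADPH supply genes, 2 were higher and 3 lower in maternal BSp, with a median log2 fold change of -0.26. Pgd encodes 6-phosphogluconate dehydrogenase, which makes NADPH in the pentose phosphate pathway. Pgd (chromosome 4, 149149991 to 149166771, minus strand) had 91.7, 146 and 70.8 in maternal BSp tumours, against 212 and 170.4 in control tumours, all maternal BSp tumours below both controls. Its log2 fold change was -0.94 ± 0.40 (limma, unadjusted p = 0.0438, adjusted p = 0.439).

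Transketolase and transaldolase work in the branch of that pathway that makes no NADPH. Tkt (chromosome 14, 30548359 to 30574720, plus strand) had 275, 187 and 214 in maternal BSp tumours, against 186 and 152 in control tumours, all maternal BSp tumours above both controls, but the lowest stood at 187 beside 186 in control replicate 1. Taldo1 had 132, 252 and 290.4 in maternal BSp tumours, against 304 and 277 in control tumours, with maternal BSp replicate 1 as the low library. Me1, malic enzyme, had 109, 86.7 and 108 in maternal BSp tumours, against 164 and 88.9 in control tumours, with control replicate 1 alone above the other 4. The log2 fold changes were 0.40 ± 0.34 for Tkt, -0.44 ± 0.42 for Taldo1 and -0.26 ± 0.38 for Me1. Without maternal BSp replicate 1 they were 0.25 for Tkt and -0.10 for Taldo1, and without control replicate 1 that of Me1 was 0.17. With both libraries that hold salivary gland transcripts left out, that of Taldo1 was -0.033.

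The other 6 detoxification genes make and export conjugates or act on epoxides, carbonyls and aldehydes. Abcc1 (chromosome 16, 14361558 to 14475737, plus strand) encodes MRP1, an exporter of glutathione conjugates, and had 87.4, 146 and 82.5 in maternal BSp tumours, against 76 and 40.5 in control tumours. All maternal BSp tumours lay above both controls, and its log2 fold change was 0.86 ± 0.42 (limma, unadjusted p = 0.0753, adjusted p = 0.468), or 0.42 without control replicate 2 and 1.31 without control replicate 1. Ugdh (chromosome 5, 65413221 to 65435949, minus strand), which makes UDP-glucuronic acid for glucuronidation, had 244, 176 and 112.1 in maternal BSp tumours, against 98 and 111.8 in control tumours. Its groups were apart by less than 1 normalised read, between maternal BSp replicate 3 and control replicate 2, and its log2 fold change was 0.68 ± 0.40 (limma, adjusted p = 0.526), or 0.42 without maternal BSp replicate 1.

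Ephx1, microsomal epoxide hydrolase, had 25.0, 114 and 13.7 in maternal BSp tumours, against 73 and 60.9 in control tumours. Maternal BSp replicate 2 was the highest library and replicates 1 and 3 the lowest. The means were 51.1 ± 55.2 in maternal BSp (SD, n = 3) and 66.9 ± 8.58 in control (SD, n = 2), so the spread within maternal BSp exceeded the difference between the groups. The log2 fold change was -0.94 ± 0.77, which was -1.79 without replicate 2 and -0.30 without replicate 3. Cbr1, a carbonyl reductase, had 24.5, 41.0 and 27.0 in maternal BSp tumours, against 41 and 32.6 in control tumours, with a log2 fold change of -0.27 ± 0.38, or -0.11 without control replicate 1. Cbr3, a second carbonyl reductase, was under the limit with 3.53, 3.90 and 1.36 in maternal BSp tumours, against 6 and 4.53 in control tumours, the lower side in maternal BSp without overlap. Aldh3a1, an aldehyde dehydrogenase, reached at most 3 in any library.

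**Figure D3:**
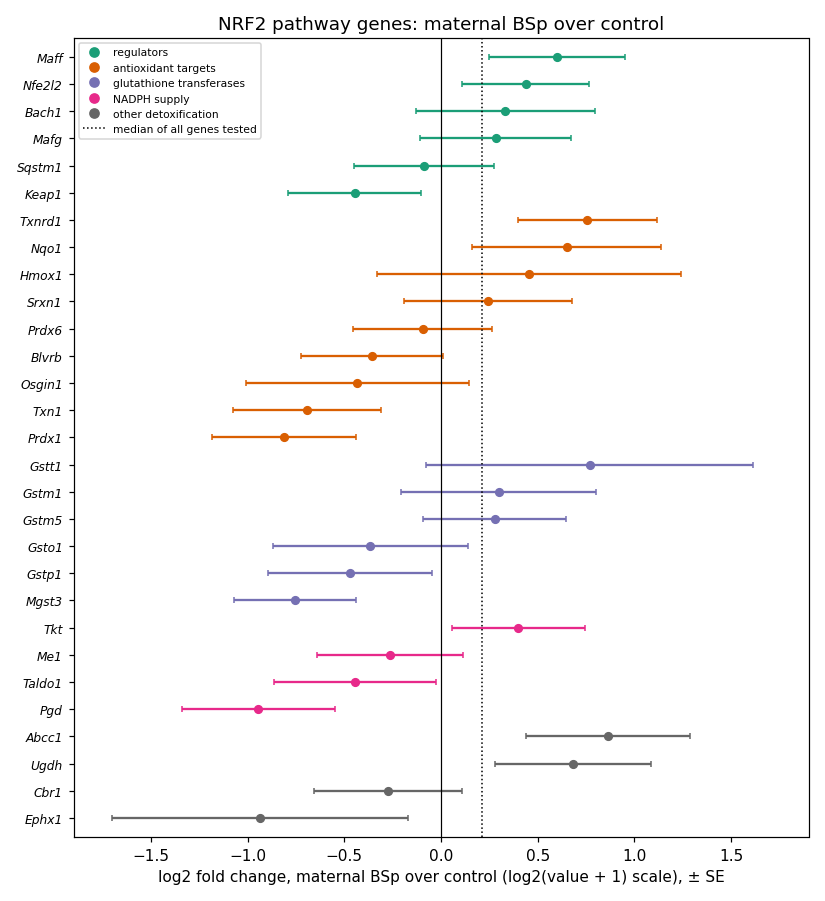
Log2 fold change, maternal BSp relative to control (horizontal axis, log2(value + 1) scale) with its SE for 29 of the 30 tested genes, coloured by role; the solid line is at 0 and the dotted line at 0.21, the median of all 9870 tested genes. Each role spans the line at 0, from -0.94 (Pgd) to 0.86 (Abcc1).

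Within the maternal BSp group the 3 tumours differed from each other across the set. Against the mean of the 5 libraries, the median log2 difference of the 30 genes was -0.03, 0.21 and -0.21 in maternal BSp tumours, against -0.02 and -0.11 in control tumours. Over all tested genes it was -0.01, 0.35 and -0.05 in maternal BSp tumours, against -0.12 and -0.09 in control tumours. Replicate 2 of maternal BSp, the deepest library, held the highest value of 10 of the 30 genes, beside 4523 of all 9870 tested genes. Replicate 3 held the lowest value of 11 of the 30, beside 2325 of the 9870.

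**Figure D4:**
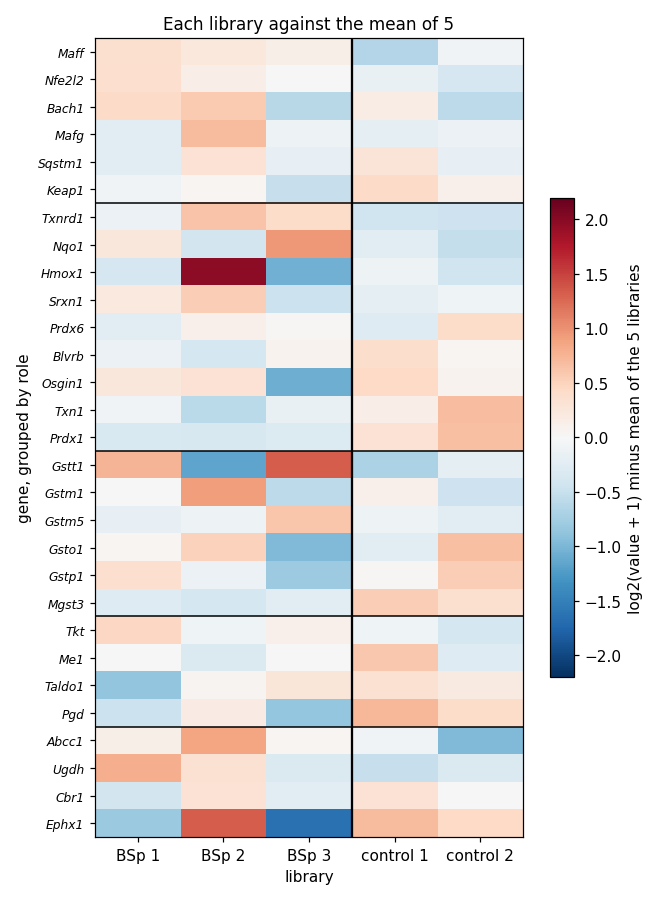
Log2(value + 1) minus the mean of the 5 libraries (colour) for 29 of the 30 tested genes by role (rows), with maternal BSp (BSp) 1 to 3 left of control 1 and 2. Hmox1 in maternal BSp replicate 2 is the strongest red and Ephx1 in maternal BSp replicate 3 the strongest blue, and no role has 1 colour throughout a group.

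Since a ratio of a pair of genes within a library does not depend on how the library was scaled, 4 ratios are given, with the pairs chosen after the values had been seen and hence with no test. They compare libraries, not levels of a pair of genes, and they keep any effect of transcript length. Nfe2l2 over Keap1 was 0.843, 0.667 and 0.898 in maternal BSp tumours, against 0.414 and 0.443 in control tumours. Txn1 over Txnrd1 was 13.9, 5.71 and 8.92 in maternal BSp tumours, against 20.3 and 29.7 in control tumours. Each pairs genes whose own groups lay on opposite sides without overlap, so that the ratios had to separate the groups.

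Prdx1 over Prdx6 was 18.0, 13.9 and 15.3 in maternal BSp tumours, against 29.2 and 22.7 in control tumours. Nfe2l2 over Bach1 overlapped, at 1.17, 0.896 and 1.89 in maternal BSp tumours, against 0.965 and 1.41 in control tumours.

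**Figure D5:**
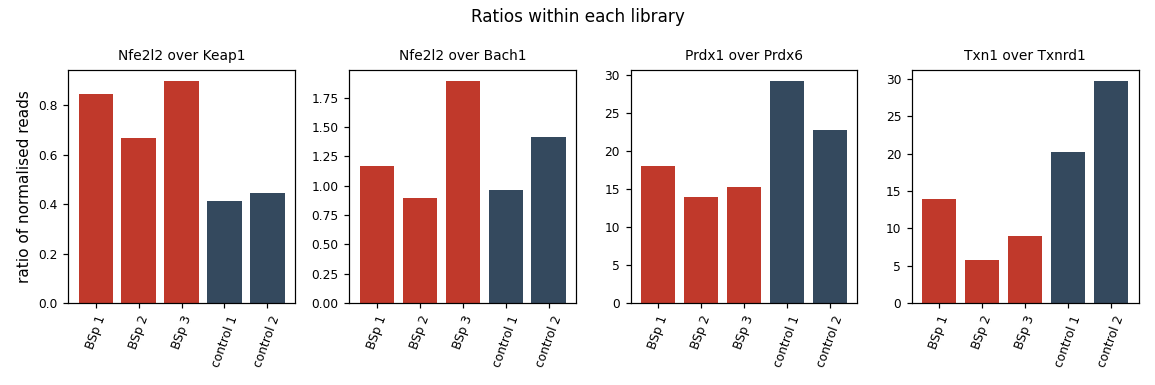
Ratio of normalised reads of the named genes (vertical axis, linear, a separate scale for each ratio) in each library, maternal BSp (BSp) 1 to 3 in red left of control 1 and 2 in blue. Nfe2l2 over Keap1 is higher in each maternal BSp library than in both controls, Prdx1 over Prdx6 and Txn1 over Txnrd1 are lower, and Nfe2l2 over Bach1 overlaps.

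Short transcripts leaned towards control in these libraries. Spearman's rho of transcript length with the log2 fold change was 0.35 over the 30 genes and 0.36 over 9406 genes with a length, across genes, which are not independent. With the trend on length and GC content removed, the log2 fold change was -1.17 for Prdx1 (limma, unadjusted p = 0.00622, adjusted p = 0.514) and -0.97 for Pgd (limma, adjusted p = 0.528). It came nearer to 0 for Txn1 (-0.48), Mgst3 (-0.46), Txnrd1 (0.45), Nfe2l2 (0.18), Tkt (0.20), Ugdh (0.40) and Abcc1 (0.56), and farther from 0 for Keap1 (-0.60) and Maff (0.70). No direction among the 11 genes with separate groups turned under that correction.

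The authors' deposited table holds 2447 genes that they named significant, out of 38918 features. It lists 8 of the 40 genes, and 6 of them with an unadjusted p under 0.05 for this comparison. In the authors' deposited table these are Prdx1 (p = 0.0073), Mgst3 (p = 0.0136), Pgd (p = 0.0273) and Txn1 (p = 0.0471), lower in maternal BSp, and Gstm2 (p = 0.00491) and Maff (p = 0.0425), higher. Nfe2l2 (p = 0.0853) and Nqo1 (p = 0.369) are also in the authors' deposited table, both higher in maternal BSp. Those p-values are not adjusted and rest on libraries analysed here, and 1739 of the 2447 listed genes have one under 0.05. Since the list was selected by the authors, these counts are not a result about the 40 genes. The control values of Gstm2 rest on 0 and 3 reads.

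Genes next to the set were read in the same fit, and none passed the test. Of 14 partners and co-regulators of NRF2, 8 were higher and 6 lower, none at an unadjusted p under 0.05. Cul3, the cullin scaffold of the KEAP1 ligase, had 135, 190.3 and 148 in maternal BSp tumours, against 101 and 113 in control tumours, above in every maternal BSp tumour, with a log2 fold change of 0.54 ± 0.33. Bach2, a relative of Bach1, had 26.2, 20.2 and 19.8 in maternal BSp tumours, against 12 and 12.7 in control tumours, also without overlap. They were the only 2 of the 14 without overlap (14.3%), beside 33.0% of all tested genes. The largest log2 fold changes of the 14 were falls, -1.15 ± 0.94 for Crebbp and -0.96 ± 0.54 for Maf, both with overlap.

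Glutathione synthesis and redox genes, of which 7 of 11 were tested, divided into 3 higher and 4 lower. Gclm, which encodes the modifier subunit of glutamate-cysteine ligase and is an NRF2 target, had 232, 434 and 267 in maternal BSp tumours, against 58 and 100.2 in control tumours. Its log2 fold change was 1.96 ± 0.42 (limma, adjusted p = 0.407). Gpx1, a glutathione peroxidase, had 201.0, 366 and 338 in maternal BSp tumours, against 702 and 653 in control tumours, with a log2 fold change of -1.21 ± 0.39 (limma, adjusted p = 0.407).

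Of 10 other thioredoxin and peroxiredoxin genes, 3 were higher and 7 lower, and Prdx5 had 191, 161 and 119.8 in maternal BSp tumours, against 242 and 311 in control tumours, a log2 fold change of -0.83 ± 0.36. Of 30 other conjugation, reductase and export genes, 16 were tested, 7 higher and 9 lower. Mgst1, a membrane-bound relative of Mgst3, had 108, 134 and 144 in maternal BSp tumours, against 43 and 38.2 in control tumours, every maternal BSp tumour above both controls, the opposite side from Mgst3. Its log2 fold change was 1.63 ± 0.33 (limma, adjusted p = 0.407). Aldh3a2, a fatty aldehyde dehydrogenase, had 44.6, 65.6 and 37.2 in maternal BSp tumours, against 21 and 26.6 in control tumours, and its log2 fold change was 0.99 ± 0.38. Akr7a5, an aldo-keto reductase, had 44.9, 48.2 and 75.0 in maternal BSp tumours, against 94 and 114 in control tumours, and its log2 fold change was -0.91 ± 0.36.

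Of 9 other NADPH and NRF2-linked metabolism genes, 6 were higher and 3 lower. Pgls, a lactonase of the pentose phosphate pathway one step before the product of Pgd, had 99.6, 109 and 143 in maternal BSp tumours, against 192 and 215 in control tumours, without overlap and below in maternal BSp like Pgd, with a log2 fold change of -0.81 ± 0.34. The ferritin genes Fth1 and Ftl1, which NRF2 also activates, had log2 fold changes of 0.04 ± 0.48 and 0.07 ± 0.38. Of 8 phase 1 and aryl hydrocarbon receptor genes, 5 were tested, 4 higher and 1 lower, and Cyp1a1 and Cyp1a2 had 0 reads in every library.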

How the data were processed

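Per the labels, RNA of integrity number 7.0 or above from 5 mammary tumours went into a strand-specific mRNA kit. The submitters' processing notes name the builds GRCm38 and mm10 and the tools FastQC, Trim Galore, cutadapt, STAR and DESeq, without versions. How reads were counted, and with which strand setting, is not given in the sources used here, so overlapping genes and near-identical copies, such as those of glutathione transferases or processed pseudogenes of Prdx1 and Txn1, are uncertain. In the deposited signal the authors had brought the reads of every library to the total of control replicate 1. Dividing by the worth of 1 read gave whole reads for 100% of values above 0, at a tolerance of 0.1. A second table gives the authors' group means and unadjusted p-values.

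The 40 genes and all other lists were chosen with earlier results of these data known. Genes with a mean of at least 10 over the 5 libraries (9870 of 38918 features) were tested with limma 3.58.1 in R 4.3.3 (trend, no covariate) on log2(value + 1), which understates the change of low genes, and p-values were adjusted by Benjamini-Hochberg (threshold 0.05). The edgeR 4.0.16 quasi-likelihood test and DESeq2 1.42.0 on recovered reads were alternatives, beside other filters, pseudocounts and scalings, removal of length and GC trends, each library left out and a replicate block. Every member is named except 1, which is counted but not reported here. Values per library follow a rule for regulators, main targets and genes with separate groups or an unadjusted p under 0.05, and those of the other tested genes were added after the values were seen. For genes outside the set the rule covered only an unadjusted p under 0.05. Values of other outside genes, such as Cul3 and Bach2, were added to it. GENCODE names 35529 of the features. The steps were tested on simulated counts with the dispersion estimated from these libraries. There limma recovered 2.99% of genes with a log2 change of 1 and 29.9% of those with a change of 2, and edgeR 1.49% and 35.8%. All 30 tested genes had log2 fold changes under 1 in size, so a real change of such a size would seldom pass the test.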

Additional observations from a re-analysis of the deposited data

How the results depend on the processing

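Under all 18 alternatives none of the tested NRF2 pathway genes passed the threshold, so none was called. Over all genes, 0 were called by limma, 87 by DESeq2 (28 higher and 59 lower in maternal BSp) and 23 with a replicate block (5 higher and 18 lower), and 0 to 1 with each library left out, the 1 without maternal BSp replicate 3. The cause was not tested. The labels number the controls in 2 ways. By the numbers used here, same-numbered libraries deviated with r = 0.094 and -0.092 across genes. By the title numbers, under which control replicates 1 and 2 share a number with maternal BSp replicates 2 and 3, they deviated with r = 0.092 and 0.160. With 2 controls, their deviations from the group mean are exact opposites, so each maternal BSp library correlates with them equally and with opposite sign. These correlations therefore cannot decide on a pairing, and with 2 pairs neither numbering shows one. A replicate block by title number, chosen after seeing the data, called 0 genes. Upper quartile scaling moved the median log2 fold change of all genes to 0.08 and median-of-ratios scaling to 0.003, and that of the 30 genes to -0.06 and -0.13. The share of genes higher in maternal BSp among those at an unadjusted p under 0.05 was 71.8% as deposited, 55.5% with upper quartile and 42.7% with median-of-ratios scaling.

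Of 538 recomputed fold changes, 22 changed sign, in 12 genes, and 18 genes kept theirs under every alternative. Not all of the 538 could differ. The other filters leave a fold change as it was. The replicate block gives the same fold changes as leaving out maternal BSp replicate 3, and the block by title number the same as leaving out replicate 1. The count is therefore not a measure of robustness. With length and GC trends removed the genes that changed sign were Bach1 (-0.089), Blvrb (0.073) and Gstp1 (0.048). With the replicate block they were Osgin1 (0.018) and Gsto1 (0.049), and with the block by title number Sqstm1 (0.012) and Prdx6 (0.0092). With both libraries that hold salivary gland transcripts left out, a choice made after seeing the data, they were Sqstm1 (0.24), Me1 (0.12) and Cbr1 (0.032). Leaving out each library in turn gave ranges across 0 of -0.011 to 0.46 for Mafg, -0.039 to 0.70 for Bach1, -0.32 to 0.14 for Sqstm1, -0.44 to 1.07 for Hmox1, -0.68 to 0.018 for Osgin1, -0.44 to 0.25 for Prdx6, -0.10 to 0.65 for Gstm1, -0.81 to 0.082 for Gsto1 and -0.70 to 0.17 for Me1. The number of the 30 genes higher in maternal BSp was 12 to 17 with a library left out, 12 without maternal BSp replicate 2. Depth limits low genes in control replicate 1, where 3 reads are worth 3.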
